A study of Mus musculus with 6 samples.

Results

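The cytosolic ribosomal protein genes encode the protein part of the ribosome that translates nuclear-encoded messages. They were taken from the array by name alone: a probe set (the group of probes that is summarised as 1 value) was a member when the platform annotation paired it with exactly 1 gene, and the symbol of that gene was Rpl or Rps with a number and at most 1 further letter, or Rplp0, Rplp1, Rplp2 or Rpsa. Symbols ending in -ps, and the kinase and binding-protein genes that share the Rps6 and Rps19 stems, were left out. The rule found 59 of the 19937 genes with a probe set of their own, in 191 probe sets, out of 34760 probe sets in the table and 22961 with at least 1 annotated gene, which were the ones tested. Of the members, 119 probe sets of 37 genes belonged to the large subunit (Rpl) and 72 probe sets of 22 genes to the small subunit (Rps).

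All 6 cultures were adult neural stem cells and progenitors from 8-week-old mice of the 129SV strain, and all mice carried floxed Sirt1 alleles. The 3 control cultures came from Sirt1lox/lox mice, which express active SIRT1, and the 3 Sirt1 inactive cultures came from NestinCre;Sirt1lox/lox mice, in which the Nestin promoter, active in neural stem and progenitor cells, drives Cre. The cells were grown as neurospheres with EGF and bFGF for 1 passage, plated on poly-D-lysine, all at the same density, and harvested while proliferating, early in passage 2. Cre was absent from the controls, and what Cre does by itself cannot be told apart from the loss of SIRT1. The sources used here do not give which part of Sirt1 is floxed or how many mice went into a culture. The titles call the 3 samples of a genotype biological replicates, and where nothing more is said of their origin the p-values measure only the spread between these samples.

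A ribosome has a small subunit that reads the message and a large subunit that joins amino acids, and its proteins are needed in equal numbers because each is used once per particle, apart from the paired P1 and P2 proteins of the stalk. Their messages are among the most abundant of a growing cell. Most begin with a C followed by a stretch of pyrimidines, the terminal oligopyrimidine or TOP motif, through which mTOR signalling sets how strongly they are translated, so much of their known control acts after the message is made. The mouse genome also holds many processed copies of these genes, inserted on other chromosomes and nearly identical in sequence, which an array can carry as probe sets of their own. SIRT1 itself is known from other cells as part of a nucleolar complex with the methyltransferase SUV39H1 and nucleomethylin (Rrp8) that silences ribosomal RNA genes when energy is low. The question put to the arrays is whether messages of the cell, here those for the ribosome, are set differently where active SIRT1 is lacking.

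Every value is a log2 expression value made with RMA, so a difference of 1 is a doubling, and differences are always Sirt1 inactive minus control. Levels of different probe sets depend on their probes and were not compared as amounts of RNA. The array medians lay between 7.36 and 7.39. Sirt1 (probe set 10369738) read 8.73, 8.78 and 8.55 in control and 8.26, 8.33 and 8.25 in Sirt1 inactive cultures. The groups did not overlap, and Sirt1 was lower by 0.405 with a standard error (SE) of 0.076, but this did not pass the adjustment over all probe sets (limma, adjusted p = 0.959). Markers of neural stem cells and progenitors had levels from 7.34 to 13.33, with Nes at 11.64 and Sox2 at 11.66 on average. The mean level of the 10 markers lay between 10.42 and 10.50 in control and between 10.46 and 10.56 in Sirt1 inactive cultures. Their differences ran from -0.07 to 0.24. None had an unadjusted p under 0.05 by limma (0.984% and 2.63% of all tested higher and lower). In a fit with the replicate number as a block, 3 of the 10 were higher (2.5% of all tested). Control replicate 3 stood apart, its median absolute deviation being 0.097 against 0.049 to 0.074 elsewhere. Its 10 astrocyte markers were also low, at a mean of 10.21 against 10.91 to 11.01 on the other 5 arrays. Of these 10 markers 9 were above 0 in their difference, with a range of -0.19 to 1.06. Of 10 neuronal markers 9 were below 0 in their difference, and their mean did not overlap between the genotypes, at 8.50 to 8.75 in control and 8.23 to 8.47 in Sirt1 inactive cultures, nor did that of 10 microglial markers, 9 of them below 0, at 6.83 to 6.91 and 6.77 to 6.80. Oligodendrocyte markers (9.74 to 9.91 and 9.88 to 10.09), endothelial markers (6.96 to 7.01 and 6.89 to 6.99) and mural and fibroblast markers (7.57 to 8.28 and 8.05 to 8.16) overlapped in their mean. The 9 oligodendrocyte markers went both ways, 3 above 0 and 6 below, from -0.20 to 0.79. The 3 above 0 had an unadjusted p under 0.05 by limma (0.984% of all tested higher). By the same measure 1 astrocyte marker was higher. Lower were 3 neuronal markers, 1 microglial marker and 1 mural or fibroblast marker (2.63% of all tested lower). With the replicate block 5 neuronal and 2 microglial markers were lower (5.08% of all tested), and 2 astrocyte markers were higher (2.5%). An RMA value has no true 0, so no marker can be called absent, and the part of these cell types in the results was not tested. In such bulk samples, fewer cells of a type and less RNA per cell cannot be told apart.

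Most ribosomal protein probe sets read almost the same in both genotypes. The median difference of the 191 probe sets was 0.014, against -0.022 for all tested probe sets, and 144 of them (75.4%) lay within 0.1 of no difference, against 70.3% of all tested. The bulk of the family therefore sat inside the error estimated from the spread between cultures. The median SE was 0.077, and the 95% intervals extended by 0.18 on each side in the median. No member passed the adjustment by limma, as no probe set of the array did (0 of 22961, 0.0%), and the count with the replicate number as a block was also 0 (0.0% of all tested).

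A minority of probe sets stood higher in the Sirt1 inactive cultures. At an unadjusted p under 0.05 by limma, 9 member probe sets were higher, or 4.71% of the members, against 0.984% of all tested, and 2 were lower, or 1.05%, against 2.63%. These 11 probe sets belonged to 9 genes. With the replicate number as a block, the counts were 22 higher (11.5%, against 2.5% of all tested) and 2 lower (1.05%, against 5.08%). They came from 16 genes, and all 11 were among them. What the arrays of a number share is not given. The smallest adjusted p of a member in that fit was 0.51. The lowest value of one genotype exceeded the highest of the other for 13 member probe sets in the direction of Sirt1 inactive (6.81%, against 2.62% of all tested), and for 3 in the direction of control (1.57%, against 6.71%). The first 13 lay in 11 genes, among them 3 probe sets of Rpl9. Without control replicate 1 the count at an unadjusted p under 0.05 was 18 in place of 11 (9.42% in place of 5.76%), and the share of all tested also grew, from 3.61% to 6.33%. Without control replicate 3 it was 8 (4.19%, against 2.81% of all tested). Without each of the other 4 arrays it lay between 9 and 12 (4.71% to 6.28%, against 1.99% to 4.88% of all tested).

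The balance of signs moved with single arrays and with the scaling. The difference was above 0 for 110 of 191 members (57.6%), against 39.9% of all tested. The members were brighter, at a median level of 10.79 against 7.90 for all tested. Of the tested probe sets at a level of 10 to 11, 50.5% were above 0. Subtracting each array's median made the share of the members 72.8%, against 51.1% of all tested, and a renewed quantile normalization made it 50.8%, against 41.3%. Without Sirt1 inactive replicate 1 it was 93 of 191 (48.7%, against 41.4% of all tested) and the median of the members turned to -0.001. Without control replicate 3 it was 130 of 191 (68.1%, against 46.3% of all tested). The median there was 0.023 for the members and -0.007 for all tested. The median deviation of the members from their mean over the arrays was -0.013, -0.022 and 0.008 in control and 0.038, -0.029 and 0.013 in Sirt1 inactive cultures. The genotypes overlapped in this measure, with Sirt1 inactive replicate 1 the highest and Sirt1 inactive replicate 2 the lowest.

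**Figure D1:**
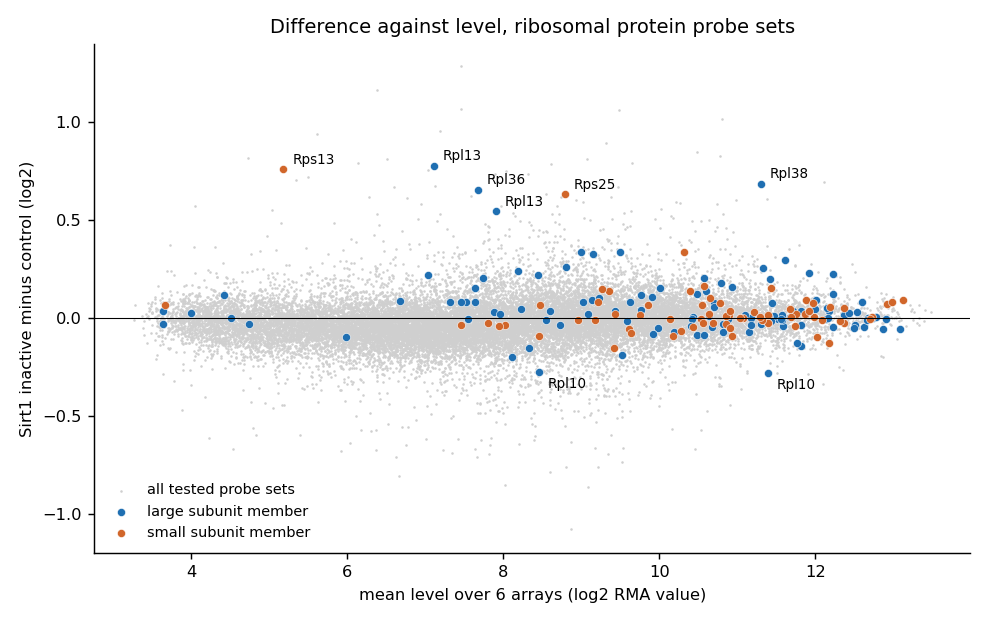
Difference between the genotypes (Sirt1 inactive minus control, log2) against the mean level over the 6 arrays (log2 RMA value); grey points are all 22961 tested probe sets, blue and orange points the 119 large and 72 small subunit members. Members brighter than 12 stay between -0.13 and 0.22, and the labelled members with differences over 0.5 include Rps13 and Rpl13 among the dimmer probe sets and Rpl38 among the brighter ones.

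The differences were smallest toward the bright end of the scale. Among the 34 member probe sets with a mean level of 12 to 14, the median size of the difference was 0.041, and 91.2% lay within 0.1 of no difference. The 51 members at 11 to 12 had a median size of 0.028, and the 41 members at 8 to 10 had 0.081. All tested probe sets showed a like course, at 0.036, 0.049 and 0.065 in the same ranges. The sign is given beside that of tested probe sets of the same level. The 26 members with a level of 3 to 8 had a median difference of 0.073 and 73.1% above 0, whereas the 11856 tested probe sets of that range had a median of -0.041 and 31.5% above 0. Several of these 26 belong to the same genes, such as Rpl13, Rpl21 and Rpl23a, and the contrast in sign was not tested.

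With only the brightest probe set of each gene, the differences were smaller. Over these 59 probe sets the median difference was -0.003, 54 lay within 0.1 of no difference, and 28 were above 0. At an unadjusted p under 0.05 by limma 1 was higher, that of Rpl14 (1.69%, against 0.984% of all tested), and none was lower (2.63% of all tested). With the replicate block 3 were higher (5.08%, against 2.5%). The median ran from -0.016 without Sirt1 inactive replicate 1 to 0.012 without control replicate 3. In the 38 genes with more than 1 probe set, the brightest lay within 0.1 for 36 genes, the exceptions being Rpl5 at 0.232 and Rpl23a at -0.143. The other 132 probe sets of those genes had a median of 0.023, with 82 above 0, and 0.007 without Sirt1 inactive replicate 1 or 0.046 without Sirt1 inactive replicate 2. At an unadjusted p under 0.05 by limma 8 of them were higher (6.06%, against 0.984% of all tested) and 2 lower (1.52%, against 2.63%). With the replicate block 19 were higher (14.4%, against 2.5%) and 2 lower (1.52%, against 5.08%). The contrast was described and not tested, and the share above 0 followed the scaling in both: 47.5% of the brightest probe sets became 69.5%, and 62.1% of the others 74.2%, with array medians subtracted.

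The sequences around the annotated starts of the genes with the widest or clearest differences are shown because the TOP motif is the shared control element of this family. Each is 50 bases of the transcript strand, from RefSeq on GRCm38.p6, with the annotated start in the middle, and capitals mark the longest run of at least 8 bases made only of C and T inside the 20 bases on either side of the start. The search stopped at that limit, which ends the marked stretch of Rps25 although C and T go on before it.
Rpl13, chr8:123102325-123102374, plus strand: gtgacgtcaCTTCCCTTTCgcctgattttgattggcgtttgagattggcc
Rpl38, chr11:114668555-114668604, plus strand: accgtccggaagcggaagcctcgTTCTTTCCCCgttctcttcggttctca
Rps25, chr9:44407689-44407738, plus strand: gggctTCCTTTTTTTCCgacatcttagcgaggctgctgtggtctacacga
Rpl14, chr9:120571492-120571541, plus strand: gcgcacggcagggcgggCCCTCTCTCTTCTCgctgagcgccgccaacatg
Rpl10, chrX:74270791-74270840, plus strand: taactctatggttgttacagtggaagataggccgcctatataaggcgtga
Rpl9, chr5:65391407-65391456, minus strand: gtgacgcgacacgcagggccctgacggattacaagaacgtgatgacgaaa
Rps13, chr7:116334166-116334215, minus strand: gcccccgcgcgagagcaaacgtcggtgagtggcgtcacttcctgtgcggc
The first 4 hold a run and the last 3 hold none in this window. The runs of Rpl13 and Rps25 begin at -16 and -20 from the annotated start and end before it, outside the annotated message. Those of Rpl38 and Rpl14 span the start. A run on either side of the start was counted alike. It was found in 21 of 56 windows of member genes (37.5%), against 16.0% of 32851 windows of all genes, and 47 of the 59 member genes had a window. The median difference of the 20 genes with a run was 0.013, taking each gene's median probe set, with a range of -0.19 to 0.26. The 27 genes without a run had a median of -0.003 and a range of -0.10 to 0.22. An annotated start need not be the start used in these cells, and a run of these letters is a description, not a site.

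Rpl13, a large subunit protein, had the widest disagreement among its own probe sets. Its 9 probe sets ran from -0.20 to 0.78. Probe set 10503249 read 7.29, 6.61 and 6.26 in control and 8.36, 7.03 and 7.11 in Sirt1 inactive cultures. The groups overlapped, replicate 1 was the highest array of both, and the difference of 0.778 was 0.35 without Sirt1 inactive replicate 1. Probe set 10415660 read 7.31, 7.69 and 7.87 in control and 8.08, 8.18 and 8.24 in Sirt1 inactive cultures, without overlap. Its means were 7.63 ± 0.29 (SD, n = 3) and 8.17 ± 0.08 (SD, n = 3), a difference of 0.544 (95% interval 0.22 to 0.87) that did not pass (limma, adjusted p = 0.959). In contrast, the 4 brightest probe sets of Rpl13, at mean levels of 9.98 to 10.81, gave -0.049, -0.086, -0.045 and -0.031. At the low end, probe set 10492229 lay at -0.199 with an SE of 0.146, and at -0.04 without control replicate 3.

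Rpl38, a small protein at the surface of the large subunit that is known for its part in translating Hox messages, gave 1 high probe set out of 4. Probe set 10509560 read 10.44, 11.23 and 11.20 in control and 11.86, 11.58 and 11.49 in Sirt1 inactive cultures. The groups did not overlap, but control replicate 1 stood well below the other control arrays. The difference was 0.687 (SE 0.216), a ratio of 1.61 on the RMA scale, and 0.43 without that array. The other probe sets gave -0.129, 0.014 and -0.050, and the last, the brightest, read 12.41 to 12.54 on all 6 arrays.

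Rps13 and Rps25, both of the small subunit, had their highest difference in their dimmest probe set. Rps13 probe set 10565434 read 4.86, 4.07 and 5.47 in control and 5.62, 5.01 and 6.05 in Sirt1 inactive cultures, a difference of 0.759 (SE 0.382) with overlapping groups that became 0.39 without control replicate 2. The other 2 probe sets of Rps13 gave 0.014 and -0.058. Rps25, which is known to be needed for initiation at some internal ribosome entry sites, had 6 probe sets. Its dimmest, 10457920, read 8.89, 8.47 and 8.05 in control and 9.37, 8.98 and 8.95 in Sirt1 inactive cultures. The lowest Sirt1 inactive array was just above the highest control array, for a difference of 0.631 (SE 0.212; limma, adjusted p = 0.959). The other Rps25 probe sets did not split by brightness. The next dimmest, 10534964, gave -0.009 (SE 0.190), 10398451 gave 0.136 (SE 0.127), the brighter 10542722 gave 0.335 (SE 0.186), 10579828 gave 0.138 (SE 0.073), and the brightest, 10584752, gave 0.047 (SE 0.067). With the replicate block, 10542722 and 10579828 also had an unadjusted p under 0.05, at 0.0075 and 0.048 by limma.

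Rpl36 showed how far 1 array can carry a mean. Its dimmest probe set, 10378783, read 8.10, 6.64 and 7.30 in control and 9.12, 7.51 and 7.38 in Sirt1 inactive cultures. The groups overlapped widely, and the difference of 0.656 (SE 0.527) was 0.10 without Sirt1 inactive replicate 1. The 6 brightest of the 8 Rpl36 probe sets lay between -0.01 and 0.06. The brightest, 10446131, gave -0.002 with a 95% interval of -0.17 to 0.17.

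**Figure D2:**
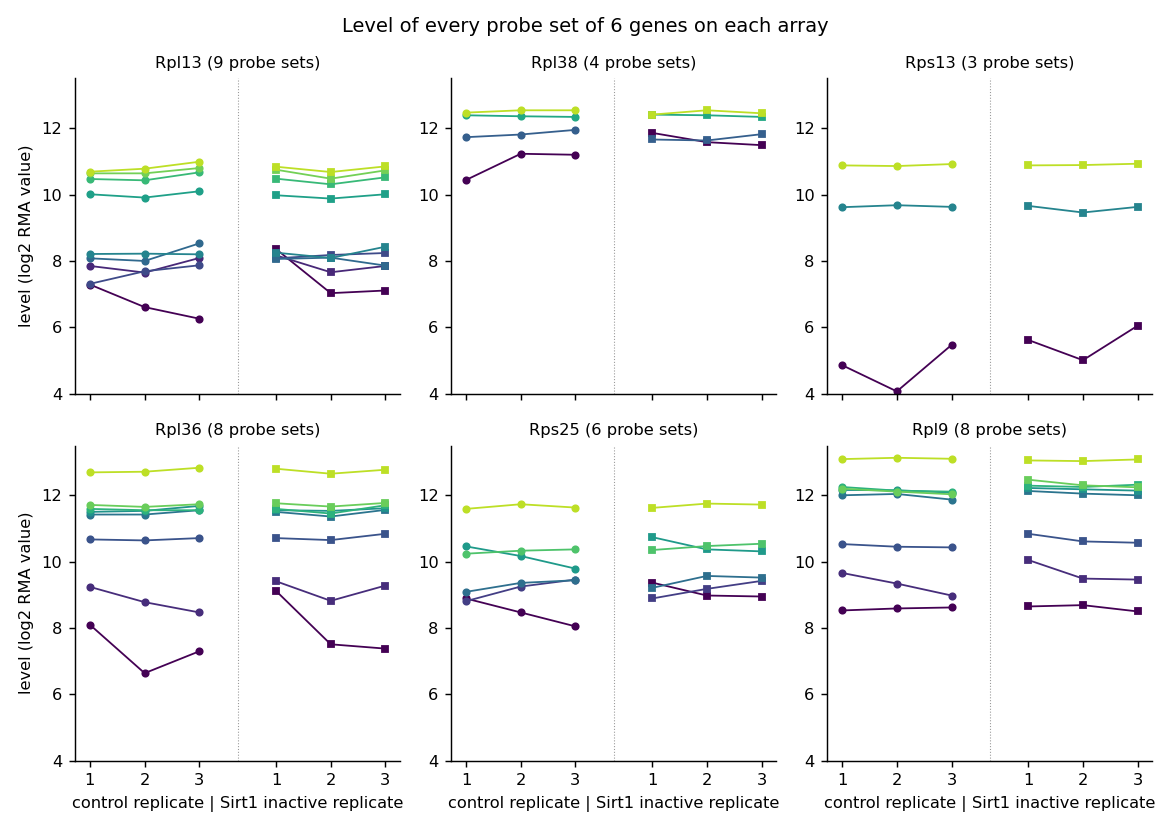
Level (log2 RMA value) of every probe set of the 6 genes with the widest range of differences, on each control array (circles) and each Sirt1 inactive array (squares); each line is 1 probe set, from dim (dark) to bright (light), and lines join arrays of a genotype without implying an order. The lines of the brightest probe sets are nearly level across all 6 arrays, whereas the dimmest lines of Rpl13, Rps13 and Rpl36 move by over 1 unit between arrays of the same genotype.

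Rpl9 was the gene whose probe sets leaned the same way most often among these. Of its 8 probe sets, 7 were above 0, and 3 did not overlap between the genotypes in that direction. Probe set 10439402 read 12.20, 12.11 and 12.03 in control and 12.47, 12.30 and 12.24 in Sirt1 inactive cultures, a difference of 0.224 (SE 0.082; limma, adjusted p = 0.959). The exception was again the brightest, 10472686. It read 13.09, 13.13 and 13.10 in control and 13.05, 13.03 and 13.08 in Sirt1 inactive cultures, so that all Sirt1 inactive arrays lay just below all control arrays, with a difference of -0.054 (SE 0.055).

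Rpl10, the large subunit protein that joins last and lines the path to the peptidyl transferase centre, had the 2 member probe sets with the clearest lower values. Probe set 10467256 read 11.44, 11.57 and 11.58 in control and 11.33, 11.25 and 11.17 in Sirt1 inactive cultures. Probe set 10581505 read 8.61, 8.57 and 8.58 in control and 8.33, 8.41 and 8.19 in Sirt1 inactive cultures. Neither overlapped between the genotypes. The differences were -0.282 (SE 0.072) and -0.276 (SE 0.071), ratios of 0.82 and 0.83, and neither passed (limma, adjusted p = 0.959 for both). The brightest Rpl10 probe set, 10600349, read 12.90, 12.90 and 12.90 in control and 12.91, 12.88 and 12.90 in Sirt1 inactive cultures. Its difference was -0.003, with a 95% interval of -0.13 to 0.12 that does not reach the values of the other pair. Over the 6 arrays, the pattern of probe set 10467256 was most like that of 10581505 of the same gene, with a Pearson correlation of 0.88, as a description. Among other genes it was most like Rpl28 (0.78), Rpl9 (0.74), Rpl23a (0.68), Rpl26 (0.65) and Rpl32l (0.63).

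The remaining higher probe sets came from the large subunit. Rpl5, which carries 5S ribosomal RNA into the particle and binds MDM2 when assembly is disturbed, was above 0 in all 4 of its probe sets. Probe set 10459669 read 11.58, 11.61 and 11.19 in control and 11.82, 11.77 and 11.68 in Sirt1 inactive cultures, a difference of 0.294 (SE 0.118) without overlap that was 0.16 without control replicate 3. The brightest, 10344931, gave 0.232 (SE 0.128), and control replicate 3 was the lowest array of both. Rpl6 probe set 10366301 gave 0.20 (SE 0.080), but its brighter companions lay within 0.1 of no difference. Rpl14, with a single probe set (10590320), read 8.56, 8.79 and 8.65 in control and 8.76, 9.05 and 8.97 in Sirt1 inactive cultures. Its groups overlapped, although each Sirt1 inactive array was above the control array of the same number, and the difference was 0.258 (SE 0.098). Rpl21 probe set 10395737 gave 0.222 (SE 0.070), and its other 8 ranged from -0.03 to 0.32.

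Lower values outside Rpl10 were small. Rps28 probe set 10524415 gave -0.154 (SE 0.082), Rpl23a probe set 10371269 gave -0.143 (SE 0.080), and Rps15 probe set 10364766 gave -0.126 (SE 0.085), all with overlapping groups. Without Sirt1 inactive replicate 2 they were -0.08, -0.08 and -0.06. For Rpl23a, which sits at the rim of the peptide exit tunnel, this was the brightest of 10 probe sets, and 7 of the others were above 0. The muscle paralog Rpl3l gave -0.097 (SE 0.062) at a mean level of 5.98, below the array medians.

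**Figure D3:**
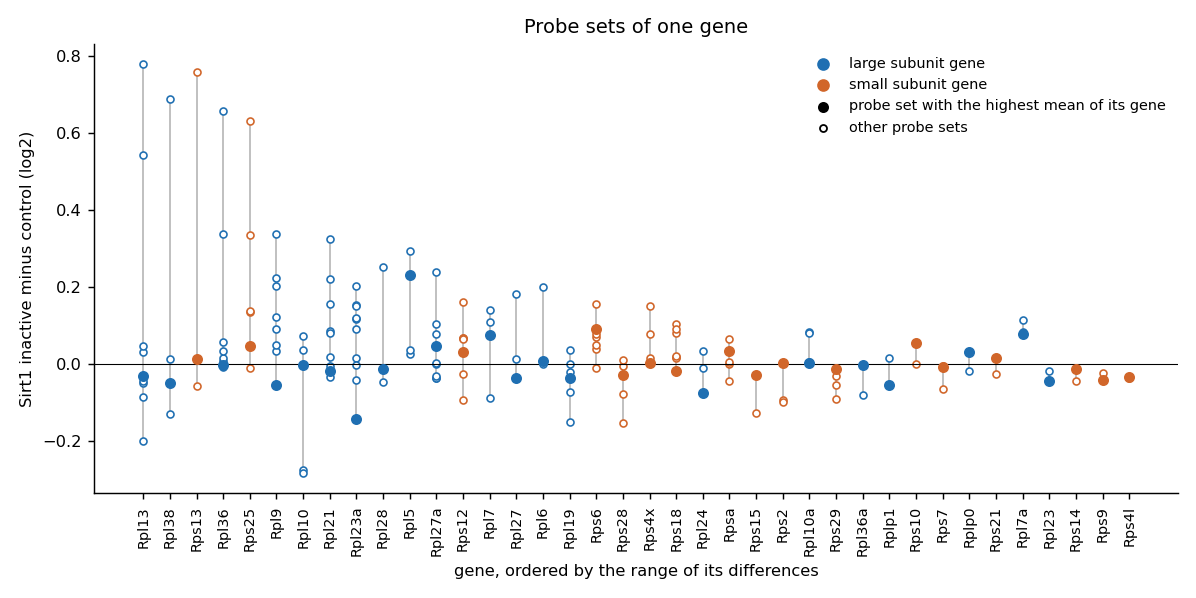
Difference between the genotypes (Sirt1 inactive minus control, log2) for each of the 170 probe sets of the 38 genes with more than 1 probe set, ordered by the range within the gene; filled points are the brightest probe set of a gene, open points its other probe sets, and grey lines the range. Filled points stay within 0.1 of 0 in 36 genes, while open points reach 0.78 in Rpl13 and -0.28 in Rpl10.

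Over the 38 genes the range of differences between the probe sets of a gene had a median of 0.16. In 13 genes all probe sets lay within 0.1 of each other, and in 9 genes they spread over more than 0.3. In 23 genes probe sets of both signs occurred, in 4 all were above 0, and in 8 all were below 0. The probe set with the highest difference was not the brightest in 29 of 38 genes. Whether the dimmer probe sets of a gene read processed copies or other genes is not given in the table and was not tested.

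Read by their place in the ribosome, and by the brightest probe set of each gene, the members were mostly within 0.1 of no difference. Rpl5 of the 5S particle, described above, was farthest, at 0.232 (SE 0.128). The P stalk recruits the elongation factors, and its Rplp0, Rplp1, Rplp2 and Rpl12 gave 0.032, -0.055, -0.006 and 0.081, with SEs of 0.058 to 0.125. At the peptidyl transferase centre, Rpl8 gave 0.006 and Rpl10 gave -0.003. At the exit tunnel, Rpl4 gave 0.006, Rpl19 -0.037, Rpl26 -0.072 and Rpl23a -0.143. The small subunit proteins at the message entry, Rps2, Rps3 and Rps15, gave 0.003, 0.004 and -0.028. Those at the message exit and platform, Rps14, Rps28 and Rpsa, gave -0.012, -0.028 and 0.033. The 7 measured proteins of the small subunit head lay between -0.02 and 0.06. Of the 24 brightest probe sets in these 7 places, none had an unadjusted p under 0.05 by limma (0.984% and 2.63% of all tested higher and lower). With the replicate block 1 was higher, that of Rpl5 (2.5% of all tested).

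Rps6, the small subunit protein that S6 kinase phosphorylates, had 7 probe sets with differences of -0.011 to 0.155. Its probe set 10424823 had the highest mean of all members, 13.12, and read 13.19, 13.11 and 12.91 in control and 13.27, 13.11 and 13.11 in Sirt1 inactive cultures. The groups overlapped, and the difference was 0.091 (SE 0.091). Rpsa, which is also known as a laminin receptor, had 5 probe sets between -0.04 and 0.06. The dimmest member, Rpl19 probe set 10422852, had a mean of 3.64 and a difference of 0.037 (SE 0.120).

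Paralogs of ribosomal proteins, which replace the common form in particular tissues, did not move together. Rpl10l, the testis form of Rpl10, read 7.10, 6.77 and 6.88 in control and 7.33, 6.91 and 7.16 in Sirt1 inactive cultures, for a difference of 0.218 (SE 0.128). Each Sirt1 inactive array was above the control array of its number, but the groups overlapped. Rps27l, a p53 target, read 11.88, 11.97 and 11.93 in control and 12.01, 11.98 and 12.01 in Sirt1 inactive cultures, so that the groups were just apart, with a difference of 0.074 (SE 0.056). Rpl39l and Rps4l gave -0.029 and -0.034, and Rpl7l1, which is no member by its symbol, gave 0.031. None of the 6 measured paralogs had an unadjusted p under 0.05 by limma (0.984% and 2.63% of all tested higher and lower). With the replicate block 1 was higher, that of Rpl10l (2.5% of all tested).

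The 21 genes with a single probe set repeated the picture of the brightest probe sets. Their median difference was 0.006, and 18 of 21 lay within 0.1 of no difference. The exceptions were Rpl14, Rpl10l and Rpl34. Rpl34 (probe set 10502196) was at 9.62 ± 0.33 (SD, n = 3) in control and 9.43 ± 0.13 (SD, n = 3) in Sirt1 inactive cultures, with overlapping arrays.

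The values of the members also followed the replicate number. The labels number the replicates 1 to 3 in each genotype. Replicate 1 was the highest array in both genotypes for 54 member probe sets (28.3%, against 14.4% of all tested), replicate 3 for 43 (22.5%, against 19.3%), and replicate 2 for 12 (6.28%, against 12.7%). Rpl28 probe set 10518329 read 11.60, 10.87 and 11.13 in control and 12.04, 11.08 and 11.24 in Sirt1 inactive cultures. Rpl10 probe set 10593320 read 11.19, 10.44 and 10.37 in control and 11.33, 10.52 and 10.36 in Sirt1 inactive cultures. In both, the array numbered 1 stood above the others by more than the genotypes differed, at 0.253 and 0.074. The deviations of same-numbered arrays from their genotype means correlated at 0.705, 0.533 and 0.428 over the 191 members for numbers 1, 2 and 3, and at 0.470, 0.358 and 0.270 over all tested probe sets, as a description across probe sets of the same arrays. The sources used here do not say what the arrays of a number share.

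**Figure D4:**
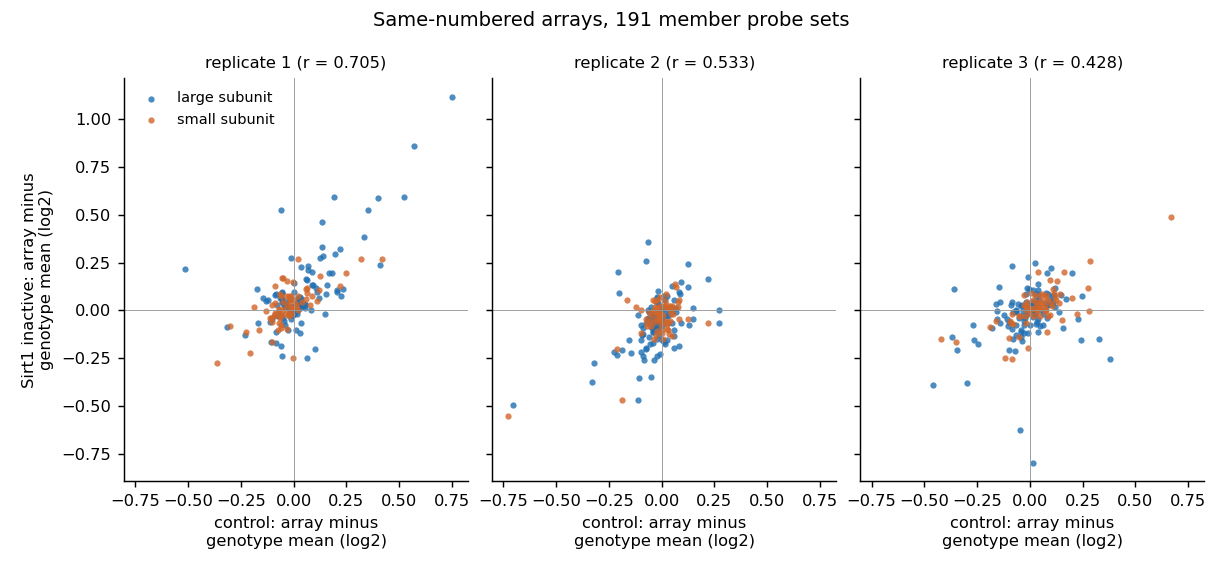
Deviation of each member probe set from the mean of its genotype (log2), in the control array (horizontal) and the Sirt1 inactive array (vertical) of the same replicate number, 191 points per panel, blue for the large and orange for the small subunit. The points stretch along the rising diagonal for every number, with r of 0.705, 0.533 and 0.428, and the farthest for number 1.

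A further 203 probe sets named a ribosomal protein gene together with another gene and were not members. They covered 34 ribosomal protein genes, 16 of which had no member, including Rpl3, Rpl11, Rpl17, Rps23 and Rps26. Their median difference was 0.019, with 120 of 203 above 0, and at an unadjusted p under 0.05 by limma 13 were higher (6.4%, against 0.984% of all tested) and 2 lower (0.985%, against 2.63%). With the replicate block 31 were higher (15.3%, against 2.5%) and 4 lower (1.97%, against 5.08%). Without Sirt1 inactive replicate 1 the median was 0.001 with 50.2% above 0, and without Sirt1 inactive replicate 2 it was 0.057 with 73.9%. Without control replicate 1 the median was 0.048, with 23 higher (11.3%) and 2 lower (0.985%). The shares of all tested also grew there, to 2.08% higher and 4.25% lower. Among ribosomal protein probe sets of either kind the 3 largest differences were found here, and they were singled out after their values were seen. The one shared by Rps23 and Gm8624 read 5.51, 7.65 and 7.27 in control and 8.03, 8.22 and 8.05 in Sirt1 inactive cultures, with a difference of 1.287 that was 0.64 without control replicate 1. The one shared by Rpl15 and Gm6937 read 7.4, 6.76 and 6.62 in control and 8.69, 7.97 and 7.32 in Sirt1 inactive cultures, with a difference of 1.068, and 0.72 without Sirt1 inactive replicate 1 or 0.92 to 1.4 without each other array. The one shared by Rpl7a and Gm5766 differed by 1.164 with overlapping groups, and by 0.49 without control replicate 2 and 2.01 without control replicate 1. All 3 named a predicted gene beside the ribosomal protein gene.

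Genes that make the other parts of the ribosome, or assemble it, were read from lists with 1 probe set per gene, the brightest. Ribosome assembly factors of the nucleolus were above 0 for 31 of 35 genes (88.6%, against 39.9% of all tested), with a median of 0.072. Their median level was 10.15, and of the tested probe sets at a level of 10 to 11, 50.5% were above 0. At an unadjusted p under 0.05 by limma 1 of 35 was higher (2.86%, against 0.984%), and 3 were with the replicate block (8.57%, against 2.5%). Npm1, a nucleolar chaperone, read 11.09, 11.18 and 10.91 in control and 11.23, 11.53 and 11.24 in Sirt1 inactive cultures, without overlap, for a difference of 0.274 (SE 0.109; limma, adjusted p = 0.959). Brix1 and Nip7, both needed to mature the large subunit, gave 0.195 (SE 0.102) and 0.168 (SE 0.113). The count above 0 was 21 of 35, with a median of 0.024, without Sirt1 inactive replicate 2, and 27 of 35, with a median of 0.033, without control replicate 1. The median was 0.119 without Sirt1 inactive replicate 1. Transcription of ribosomal RNA by polymerase I gave a median of 0.025 with 11 of 16 genes above 0, and its direction turned with the arrays used. It was -0.015 with 7 of 16 above 0 without Sirt1 inactive replicate 2, 0.005 with 8 of 16 without control replicate 2, 0.060 without Sirt1 inactive replicate 1, and -0.002 with array weights. Its Rrp8, the nucleomethylin of the SIRT1 complex, differed by 0.047 and the polymerase subunit Polr1a by 0.055 (SE 0.076).

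Mitochondrial ribosomal proteins, which build the separate ribosome of that organelle, were above 0 for 60 of 77 genes (77.9%, against 39.9% of all tested). Their median level was 9.73, and of the tested probe sets at a level of 8 to 10, 46.8% were above 0. The median difference of 0.046 became 0.029 when control replicate 2 was left out and 0.030 when Sirt1 inactive replicate 2 was. Mrpl42 and Mrps10 had an unadjusted p under 0.05 by limma, at 0.286 (SE 0.094) and 0.228 (SE 0.092), or 2 of 77 (2.60%, against 0.984% of all tested higher). With the replicate block it was 3 of 77 (3.90%, against 2.5%). Other messages with a TOP motif showed no common sign, at a median of -0.008 and 6 of 15 above 0, or 11 of 15 with array medians subtracted, and the median was 0.002 without Sirt1 inactive replicate 1. Among them the elongation factors Eef1a1 and Eef2 gave -0.016 and -0.023, and Tpt1 read 12.85, 12.92 and 13.03 in control and 12.67, 12.82 and 12.73 in Sirt1 inactive cultures, a difference of -0.193 without overlap (limma, adjusted p = 0.959). Npm1 stood in this list as well as in the assembly list. At an unadjusted p under 0.05 by limma 1 of the 15 was higher (6.67%, against 0.984% of all tested) and 1 lower (6.67%, against 2.63%). The mTOR and S6 kinase arm had a median of -0.044, with 6 of 17 above 0. The median became -0.018 when control replicate 3 was left out, -0.019 when Sirt1 inactive replicate 1 was, and 0.002 with 9 of 17 above 0 under array weights. Its largest difference was that of Sesn2, an inhibitor of mTOR complex 1, at -0.217, where control replicate 3 alone was high at 10.75 and the other 5 arrays read 10.07 to 10.28. Fau, whose product is a ubiquitin-like protein fused to a small subunit protein, gave -0.085.

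**Figure D5:**
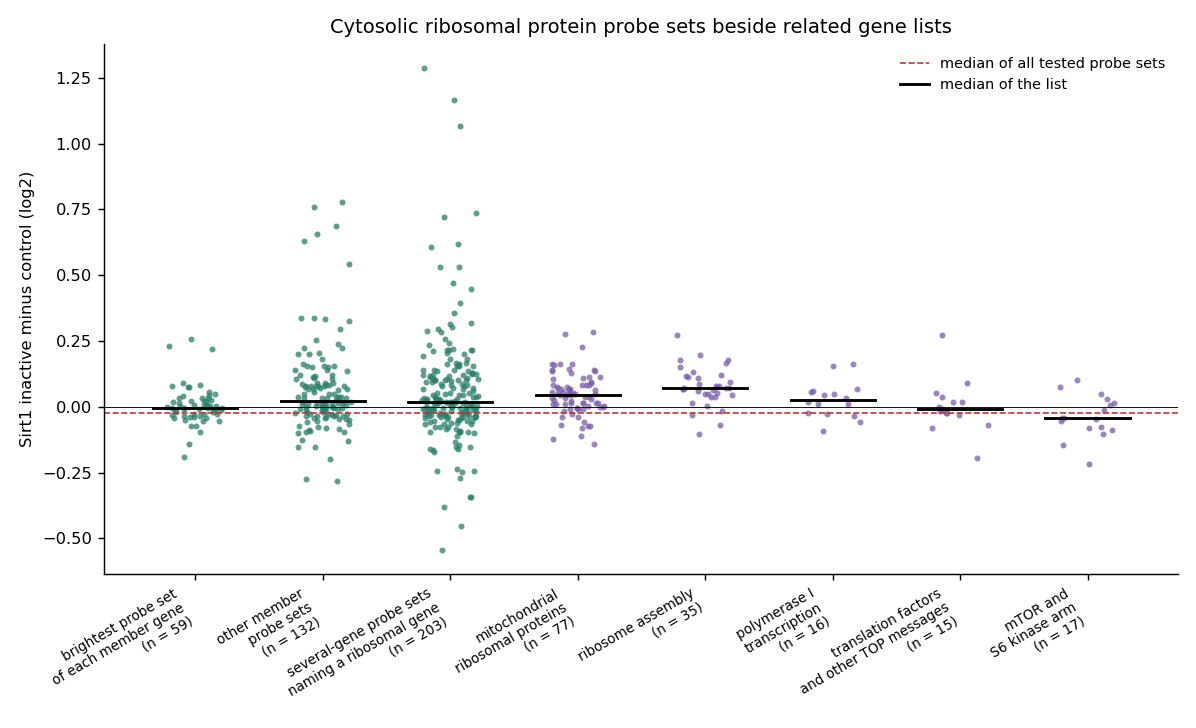
Difference between the genotypes (Sirt1 inactive minus control, log2) for ribosomal protein probe sets (green) and for related lists with 1 probe set per gene (violet); black bars are the medians of each set, and the dashed line is the median of all tested probe sets, -0.022. The brightest probe sets of the members centre on -0.003 with little spread, the several-gene probe sets spread from -0.54 to 1.29, and the assembly list has the highest median, 0.072.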

How the data were processed

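The deposited table gives, for every array, a log2 expression value of each probe set; per the submitters' processing notes the authors used RMA, which makes the distributions of the arrays nearly equal and compresses differences of dim probe sets. The sources used here do not give its version or the genome build. The log2 scale was read from the values, which ran from 3.02 to 13.62. No further normalization was applied, and arrays have no read depth, so their number (6) limits the precision. There were 0 columns from other samples.

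The genotypes were compared with limma 3.58.1 in R 4.3.3 over the 22961 probe sets with an annotated gene, with empirical Bayes moderation, two-sided p-values and Benjamini-Hochberg adjustment at 0.05. An exact permutation test of 3 against 3 arrays cannot give a p below 0.1. All 3 same-numbered pairs of arrays deviated together (0.470, 0.358 and 0.270 over all tested probe sets), so the fit with the replicate number as a block is given beside the main counts where it moves them. Deviations from a genotype mean cancel within the genotype, so some matching of the arrays has to correlate positively. The correlations therefore do not settle what a number shares. In 5 simulations of this comparison with 200 changed probe sets among 22961, the fit recovered 49.3%, 91.9% and 97.9% of changes of 0.5, 1 and 2. On average 7 unchanged probe sets were called as well. The simulated noise was independent between arrays, without the deviations shared by replicate number here, so these shares need not hold for the real arrays.

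Members and lists were chosen with earlier results of these data known. Named were Sirt1, the 8 member probe sets per direction with the smallest p, the 6 genes whose probe sets lie farthest apart, the stalk, transferase centre, 5S and paralog lists, Rps6 and Rpsa, the brightest and dimmest members, up to 4 genes of each other list by p, and the 5 genes most like the member of smallest p. Values for Rpl28, Rpl34, Rpl10 probe set 10593320 and the remaining list genes were chosen after their values were seen. Alternatives were the block, array medians subtracted, a renewed quantile normalization, other filters, an intensity trend with a robust prior, array weights, 1 value per gene and leaving out each array. Symbols were read from the platform annotation and promoter windows from RefSeq, where 12 member genes had none.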

Additional observations from a re-analysis of the deposited data

How the results depend on the processing

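No member passed the adjusted threshold under any of the alternatives run, and the smallest adjusted p was 0.51. The 20 probe sets followed through all alternatives kept their direction in 255 of 255 values. They had been picked from these same arrays for a small p or a far difference within their gene. The alternatives reuse most of the same values, and the block leaves a difference unchanged. The kept direction was therefore close to given in advance. The number of members at an unadjusted p under 0.05, 11, became 24 with the replicate block, which pairs the arrays by number, and lay between 8 and 18 with 1 array left out. The block moved other counts at that p too, given beside them, but no adjusted call. The median difference, 0.0143, was -0.0028 over the brightest probe set of each gene and lay between -0.0011 and 0.0365 with 1 array left out. The members above 0, 110 of 191, were 35 of 59 genes by gene means and 28 of 59 by the brightest probe set. Fewer values are counted there, but the share above 0 with the brightest probe sets was also lower, at 47.5% against 57.6%; the cause was not tested. With 3 arrays per genotype a change of 0.5 was recovered in 49.3% of simulated cases, so smaller differences of single probe sets were mostly not detectable here. Larger ones were not called either, as no probe set of the array passed, including the several-gene probe set at 1.287. The simulations drew independent noise, so their shares need not hold for these arrays.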
